A study of Mus musculus with 8 samples.

Results

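The tachykinin genes of the mouse ventral tegmental area (VTA) are described here in pups exposed to early life social stress (SS) and in unhandled controls (CTR). The members are the peptide precursor genes Tac1 and Tac2 and the receptor genes Tacr1 and Tacr3, chosen by name, that is 4 of the 54735 genes in the count table. All 4 were among the 16538 genes that passed the filter on low counts. The other genes of the family, Tac4 and Tacr2, did not pass it and are described with the pathway. The study had itself named Tac2 among its genes from these same libraries, so its direction here is not independent evidence.

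RNA-sequencing was performed on VTA punches of both sides, with 1 library per mouse, 4 CTR and 4 SS mice. All mice were of the DBA2/J strain, labelled male and labelled postnatal day 21 (P21). The study's methods place tissue collection on the day after the last stress session. SS pups were each put with a threatening adult mouse for 30 min a day on 7 consecutive days between P14 and P21, as the labels give it, and CTR litters stayed with their mothers undisturbed. No allele or drug distinguished the groups. By the study's methods, litters rather than single pups were assigned to a group, and a litter could give more than 1 mouse. The labels do not give the litter of a mouse, so libraries of a group may come from littermates. P-values here measure the spread between these libraries and not between litters. Libraries are named by group and replicate number (CTR-1, 2, 3 and 5 and SS-2, 3, 4 and 5).

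Tachykinins are short neuropeptides that are cut from larger precursors and released by neurons. Tac1 encodes substance P and neurokinin A, and Tac2 encodes neurokinin B. Their receptors couple to the Gq class of G proteins, which activate phospholipase C. Substance P prefers the receptor made from Tacr1, and neurokinin B prefers the receptor made from Tacr3. Dopamine neurons of the midbrain are a known site of Tacr3, and neurokinin B neurons are best known from the hypothalamus, where they take part in the control of reproduction.

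The stretches that encode the ends of the mature peptides are shown because the family is defined by that end and because the counts of a gene pool the peptides that it encodes. Each stretch is the last 10 codons of the peptide, taken from the GENCODE M21 transcripts (GRCm38, the same build as mm10), with the 5 codons of the shared carboxyl end in capitals. Those capitals encode phenylalanine, a variable residue, glycine, leucine and methionine. The neurokinin B stretch lies in a coding exon of Tac2 on chromosome 10, from 127729116 to 127729145 on the plus strand. The substance P stretch lies in a coding exon of Tac1 on chromosome 6, from 7556735 to 7556764 on the plus strand, and leaves out the codon of the first residue of that peptide. The neurokinin A stretch lies in another coding exon of Tac1, from 7559101 to 7559130 on the plus strand.
neurokinin B, Tac2: gacatgcacgacttcTTTGTGGGACTTATG
substance P, Tac1: cccaagcctcagcagTTCTTTGGATTAATG
neurokinin A, Tac1: cataaaacagattccTTTGTTGGACTAATG
Over the 15 capital bases, neurokinin B shared 13 with neurokinin A and 10 with substance P, and the Tac1 peptides shared 12 with each other. The substance P stretch was present in 3 annotated coding transcripts of Tac1 and the neurokinin A stretch in 2 of them. Counts per gene do not separate these transcripts, so a level of Tac1 is not a level of either peptide.

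The libraries held 20036086 to 47319997 counts on genes. A count of 0 allowed a level of up to 0.0622 to 0.155 CPM (counts scaled to a library of 1 M counts, with TMM normalization), that is 3 counts of the library, which covers counting error only. CTR-5 and SS-5 held 14997 and 6551 counts of Xist and 3 and 0 counts of Y-linked genes, against their male label. Of the 1991 genes at 1 to 3 CPM on average, CTR-1 lacked any count in 434 and CTR-2 in 355, against 1 to 94 in the other libraries. Fold changes and ratios of the members, and counts for the pathway, dopamine neuron and hypothalamic lists, are also given without either pair. The summed level of 10 dopamine neuron markers was 816 to 1835 CPM in CTR and 197 to 280 CPM in SS, which checks the labelled tissue in CTR and shows much lower levels in every SS library.

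Tac2 was the member that differed most between the groups. It was about 4-fold higher in SS, its precursor partner Tac1 and the receptor Tacr1 had overlapping levels, and Tacr3, the receptor that neurokinin B prefers, had a mean in SS that was 53.9% of that in CTR by the fitted fold change. In the quasi-likelihood test of edgeR, adjusted over all tested genes by Benjamini and Hochberg's method, 0 of the 4 members had an adjusted p under 0.05, where 0.0847% of all tested genes had one. At an unadjusted p under 0.05 there were 2 of the 4, Tac2 higher and Tacr3 lower, where 6.55% of all tested genes were past it in either direction. Without CTR-1 and CTR-2 the same 2 were past it. Without CTR-5 and SS-5 there were 3 of the 4, with Tac1 lower. The 6.55% belongs to the fit with all libraries. The share for the fits without a pair was not taken, so their counts have no background here. All SS libraries lay above all CTR libraries in 1 of the 4, Tac2, and in 2.47% of all tested genes. All SS libraries lay below all CTR libraries in 0 of the 4 and in 2.21% of all tested genes. With DESeq2 at default options, 1 of the 4, Tac2, was higher in SS at an adjusted p under 0.05, against 0.109% of the genes to which DESeq2 gave an adjusted p. In punches of bulk tissue, fewer cells of a type and less RNA per cell cannot be told apart. The study counted dopamine neurons in stained sections of the VTA and reported no difference between the groups. Which cells held the members was not tested.

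**Figure D1:**
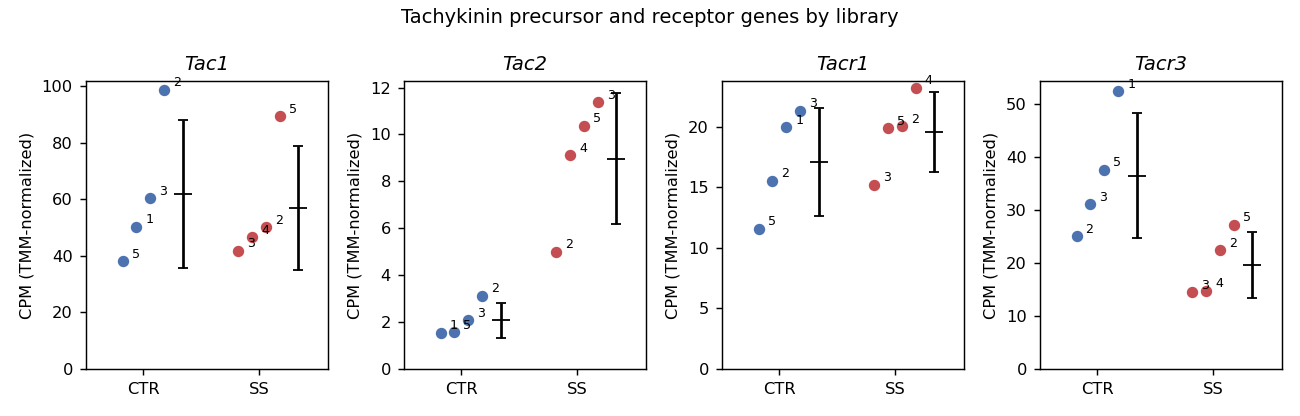
Level of each tachykinin gene in every library, as TMM-normalized CPM on a linear axis from 0, with points numbered by replicate (blue CTR, red SS) and the mean ± SD of 4 libraries at the side. Tac2 reached 3.11 CPM at most in CTR and 5.00 CPM at least in SS, whereas the groups overlapped in the other panels, in Tacr3 only through CTR-2 and SS-5.

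Tac1 (chromosome 6, 7554879 to 7565834, GRCm38), the precursor of substance P and neurokinin A, was the most abundant member. In the CTR libraries 1, 2, 3 and 5 its level was 50.3, 98.6, 60.3 and 38.0 CPM. In the SS libraries 2, 3, 4 and 5 it was 50.1, 41.8, 46.5 and 89.3 CPM. CTR-2 and SS-5 stood above the rest of their groups, and the groups overlapped over most of their range. Mean levels were 61.8 ± 26.2 CPM for CTR and 56.9 ± 21.8 CPM for SS (SD, n = 4 per group). The log2 fold change was -0.12 (SE 0.29, adjusted p = 0.95 with edgeR). An exact two-sided permutation test of log2 CPM gave p = 0.74. The sign of this difference depended on single libraries. It was 0.20 without CTR-2, 0.0044 without SS-3, 0.21 without CTR-1 and CTR-2, and -0.60 without CTR-5 and SS-5, which carry Xist (unadjusted p = 0.031, adjusted p = 0.41 with edgeR), and no direction can be read for Tac1.

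Tac2 (chromosome 10, 127724478 to 127731768, GRCm38), the precursor of neurokinin B, was the least abundant member in CTR. By replicate number, the CTR libraries held 1.55, 3.11, 2.07 and 1.55 CPM of it. The SS libraries held 5.00, 11.4, 9.11 and 10.4 CPM. The highest CTR library was CTR-2 and the lowest SS library was SS-2, and a gap separated them. These levels rested on 30 to 77 counts a library in CTR and 209 to 548 in SS. The log2 fold change was 2.11 (SE 0.37), a fold of 4.32, with an unadjusted p = 0.00012 and an adjusted p = 0.086 with edgeR. The exact two-sided permutation test gave p = 0.029, the smallest that 4 against 4 libraries allow. DESeq2 gave an adjusted p = 2.6e-05. Among the 8365 genes with a higher fitted level in SS, Tac2 had the smallest p of edgeR's test, and 0.768% of all tested genes had a fold change of larger size in either direction.

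The size of the Tac2 difference moved little between settings and its call moved much. Over 27 alternatives its log2 fold change ran from 1.91 to 2.38, its adjusted p from 7.2e-07 to 0.77, and 11 of them put it past an adjusted p of 0.05. Of these, 10 were fits with DESeq2. The other was edgeR without CTR-2, the CTR library with the most Tac2, which gave 2.38 and an adjusted p = 0.049. The rest of edgeR's fits with 1 library left out gave adjusted p-values up to 0.54. Without CTR-5 and SS-5 the log2 fold change was 1.91 (SE 0.47, adjusted p = 0.28 with edgeR). Without CTR-1 and CTR-2 it was 2.31 (SE 0.38, adjusted p = 0.061 with edgeR).

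**Figure D2:**
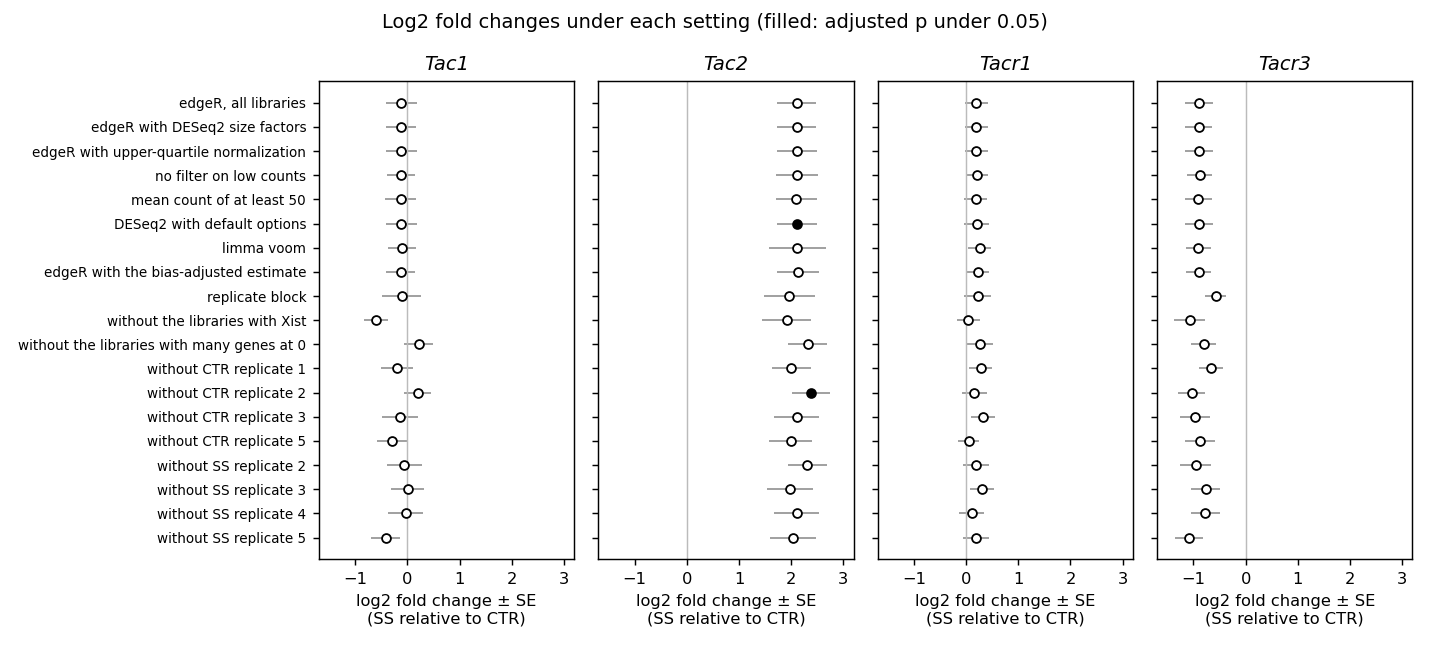
Log2 fold change of each member, SS relative to CTR, with its SE as a line (x axis), under each setting (y axis), where filled points have an adjusted p under 0.05. Tac2 lay between 1.91 and 2.38 in every setting drawn, Tacr3 was below 0 in every one, and Tac1 changed sign without CTR-2, without SS-3 and without the libraries with many genes at 0.

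Tacr1 (chromosome 6, 82402334 to 82560104, GRCm38) encodes the receptor that substance P prefers. By replicate number, it stood at 19.9, 15.6, 21.3 and 11.6 CPM in the CTR libraries. In the SS libraries it stood at 20.04, 15.2, 23.2 and 19.9 CPM. The groups overlapped almost wholly, with CTR-5 alone below the range of SS. The log2 fold change was 0.20 (SE 0.22, adjusted p = 0.88 with edgeR), and the exact permutation test gave p = 0.46. Its coefficient of variation between libraries was 25.9% in CTR and 16.9% in SS, the smallest of the members in each group. In none of 28 alternatives was Tacr1 past an adjusted p of 0.05, and its log2 fold change ran from 0.038 to 0.32. It was 0.04 without CTR-5 and SS-5 and 0.26 without CTR-1 and CTR-2 with edgeR.

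Tacr3 (chromosome 3, 134829007 to 134934579, GRCm38), the receptor of neurokinin B, had the second largest fold change of the members and the opposite direction to Tac2. The CTR libraries, again by replicate number, had 52.4, 25.0, 31.1 and 37.6 CPM. The SS libraries had 22.4, 14.4, 14.7 and 27.2 CPM. The groups overlapped by a single pair, in that SS-5 lay above CTR-2. Mean levels were 36.5 ± 11.8 CPM for CTR and 19.7 ± 6.21 CPM for SS (SD, n = 4 per group). The log2 fold change was -0.89 (SE 0.26, unadjusted p = 0.0052, adjusted p = 0.63 with edgeR). The exact permutation test gave p = 0.057, and DESeq2 with all libraries gave an adjusted p = 0.13. Over 28 alternatives the log2 fold change ran from -1.09 to -0.58 and was never above 0, with adjusted p-values from 0.028 to 0.999. With edgeR it was -1.07 without CTR-5 and SS-5 and -0.80 without CTR-1 and CTR-2. The alternatives past an adjusted p of 0.05 were 3 fits with DESeq2, namely without CTR-2 (adjusted p = 0.035), without SS-5 (adjusted p = 0.035) and without CTR-5 and SS-5 (adjusted p = 0.028). These fits called 0.283%, 0.334% and 2.76% of the genes to which they gave an adjusted p as lower in SS, against 0.310% for DESeq2 with all libraries.

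Levels of different genes were compared after division by the length of their annotated exons, as CPM per kilobase of exon. In CTR the order was Tac1 at 18.2 ± 7.70, Tacr3 at 9.71 ± 3.13, Tacr1 at 2.63 ± 0.682 and Tac2 at 1.50 ± 0.533 (mean ± SD, n = 4). In SS the order was Tac1 at 16.7 ± 6.43, Tac2 at 6.50 ± 2.03, Tacr3 at 5.23 ± 1.65 and Tacr1 at 3.02 ± 0.509 (mean ± SD, n = 4). Tac2 therefore stood last in CTR and next to Tac1 in SS. Within libraries, Tac2 lay above Tacr1 in 0 of 4 CTR libraries and in 4 of 4 SS libraries. It lay above Tacr3 in 0 of 4 CTR libraries and in 3 of 4 SS libraries, with SS-2 as the exception. Some neighbours in these orders did not differ beyond their spread. The ranges of Tac1 and Tacr3 overlapped in CTR, as did those of Tacr1 and Tac2, and in SS the ranges of Tac2 and Tacr3 overlapped. In every library of both groups, Tac1 lay above Tacr3 and Tacr3 above Tacr1.

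**Figure D3:**
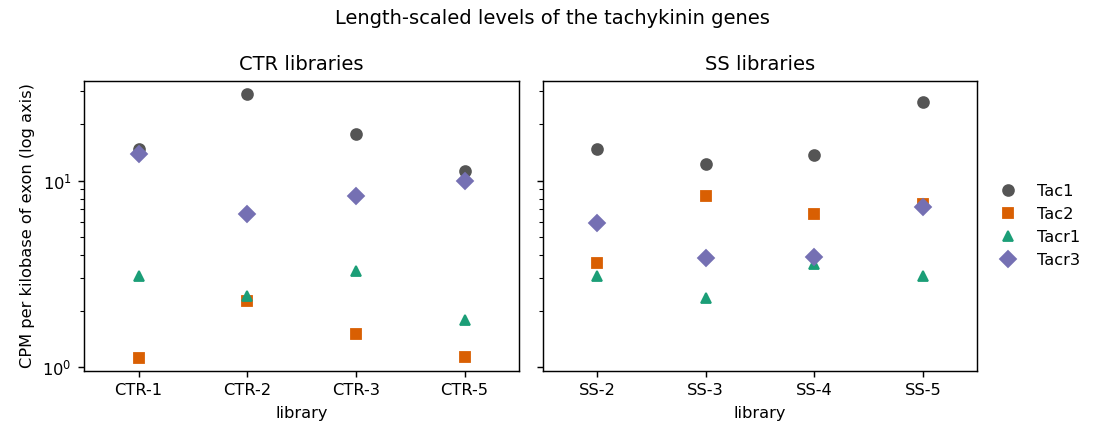
Level of the tachykinin genes in each library as CPM per kilobase of exon (log axis), with CTR libraries on the left and SS libraries on the right and a symbol for each gene. Tac2 (squares) was the lowest gene in all 4 CTR libraries and lay above Tacr1 (triangles) in all 4 SS libraries.

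Ratios of counts within a library do not depend on library size or normalization. Peptide precursor against peptide precursor, the CTR libraries held 3.08, 3.15, 3.44 and 4.08 counts of Tac2 per 100 counts of Tac1. The SS libraries held 9.98, 27.2, 19.6 and 11.6. The CTR libraries lay close together and all SS libraries lay above them. On the log2 scale the ratio was -4.86 ± 0.18 in CTR and -2.66 ± 0.67 in SS (SD, n = 4 each), a difference of 2.19 (exact two-sided permutation p = 0.029, 0.043 after Benjamini-Hochberg adjustment over the 3 ratios). The SD of this ratio in CTR was smaller than that of the log2 CPM of Tac1 (0.58) or Tac2 (0.46), and CTR-2 was the highest CTR library for both genes.

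Ligand against receptor, the CTR libraries held 2.96, 12.4, 6.67 and 4.14 counts of Tac2 per 100 counts of Tacr3, in the order of their numbers. The SS libraries held 22.3, 78.7, 61.9 and 38.1. This ratio separated the groups, as Tac2 alone did, although Tacr3 alone did not. The log2 ratio was -4.13 ± 0.89 in CTR and -1.15 ± 0.80 in SS (SD, n = 4 each). The difference was 2.99, a fold of 7.93 (exact permutation p = 0.029, adjusted p = 0.043). The ratios of Tac2 to Tac1 and of Tac2 to Tacr3 both contain Tac2, which separated the groups by itself. Their p-values are therefore not evidence apart from that of Tac2. For Tac1 against Tacr1 the groups overlapped, with log2 ratios of 1.80 ± 0.59 in CTR and 1.49 ± 0.49 in SS (exact permutation p = 0.43, adjusted p = 0.43, n = 4 each). With 1 library left out, the difference for Tac2 to Tac1 stayed between 1.93 and 2.41 and that for Tac2 to Tacr3 between 2.68 and 3.36. The smallest p that 3 against 4 libraries allow is 0.057, so these are values with no test. Without CTR-5 and SS-5 the differences for Tac2 to Tac1, Tac2 to Tacr3 and Tac1 to Tacr1 were 2.42, 2.92 and -0.57. Without CTR-1 and CTR-2 they were 2.06, 3.09 and -0.12.

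**Figure D4:**
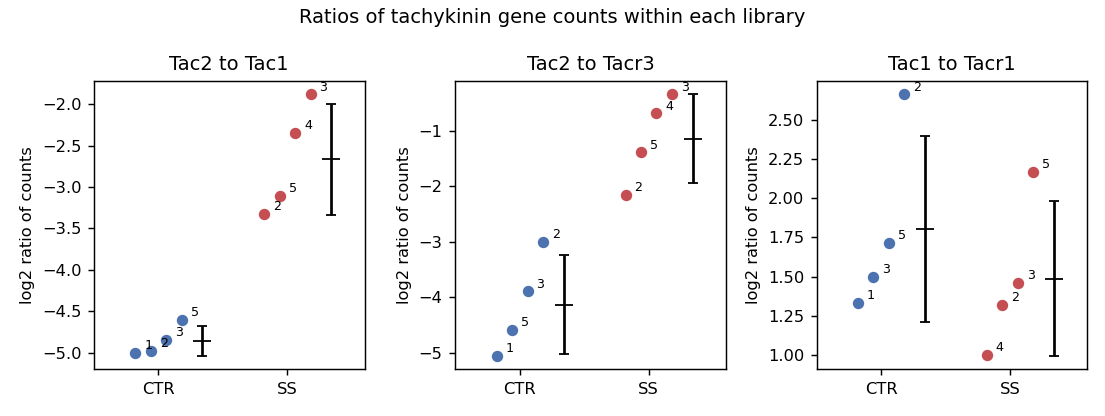
Log2 ratio of counts within each library for Tac2 to Tac1, Tac2 to Tacr3 and Tac1 to Tacr1 (y axes, which do not start at 0), with points numbered by replicate (blue CTR, red SS) and the mean ± SD of 4 libraries at the side. Every SS library lay above every CTR library in the first pair of panels, and the groups overlapped in the last.

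The rest of the tachykinin pathway was read from lists chosen by function. Without either pair of libraries that stood apart, edgeR again called 0 genes of the pathway lists. Counts at an unadjusted p under 0.05 depended on the pair. Without CTR-5 and SS-5, precursor processing had 1 higher and 3 lower, Gq signalling 0 and 2, and desensitization 0 and 0. Without CTR-1 and CTR-2, these were 0 and 0, 0 and 4, and 1 and 0. Of the other family genes, Tac4, which encodes hemokinin, was counted 0 times in 5 libraries, once in CTR-5, 9 times in SS-3 and 11 times in SS-5. Tacr2, the receptor that neurokinin A prefers, had 0 counts in all CTR libraries, 0 in SS-3 and SS-4, and 6 and 4 in SS-2 and SS-5. Neither passed the filter, and no fold is given for them. These family genes were at or near 0 throughout, whereas Tacr1 and Tacr3 had at least 385 and 391 counts in every library.

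Among 7 genes that process peptide precursors, 0 had an adjusted p under 0.05 with edgeR, 2 were lower and 0 higher by the unadjusted p, and 0 passed with DESeq2. Their median log2 fold change was -0.07, against 0.0037 over all tested genes. Cpe, the carboxypeptidase that trims basic residues from peptide intermediates, was the most abundant, with -0.20 as its log2 fold change (SE 0.08, adjusted p = 0.75). Scg5, a chaperone of a prohormone convertase, had -0.28 (SE 0.13, adjusted p = 0.75). These are small against the difference of Tac2. Among 5 peptidases that can break down tachykinins, 0 passed with either tool and 0 had an unadjusted p under 0.05. Their median was 0.22. Ace, the angiotensin-converting enzyme, had a log2 fold change of 0.30 (SE 0.15), and Ece1 and Ece2, the endothelin-converting enzymes, had 0.07 (SE 0.11) and 0.29 (SE 0.32).

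Below the receptors, 0 of 13 genes of Gq signalling passed with edgeR or DESeq2, and 2 were lower at an unadjusted p under 0.05. Their median log2 fold change was -0.03. Gnaq, the alpha subunit of Gq, was the most abundant with 209 ± 45.6 CPM for CTR and 205 ± 2.53 CPM for SS (SD, n = 4 per group). Prkca, a protein kinase C, was the gene whose SS libraries all lay below all CTR libraries, with 71.2 to 186 CPM for CTR against 58.8 to 62.5 CPM for SS. Its fitted log2 difference was -0.86 (SE 0.24, edgeR adjusted p = 0.57), close in size to that of Tacr3. Of 6 genes of receptor desensitization, 0 passed with either tool and 1 was higher at an unadjusted p under 0.05, with a list median of -0.06. That gene was Arrb2, an arrestin, with 42.5 to 62.3 CPM for CTR against 66.3 to 70.6 CPM for SS (log2 fold change 0.34, SE 0.13, adjusted p = 0.75). Arrb1, the more abundant arrestin, had -0.05 (SE 0.08), and Grk6, a receptor kinase, had -0.09 (SE 0.11).

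Markers of the cell types and neighbouring regions that a VTA punch can hold were read beside the members. Of 10 dopamine neuron markers, 5 were lower in SS at an adjusted p under 0.05 with edgeR and 7 with DESeq2. In 8 of them, and in 2.21% of all tested genes, all SS libraries lay below all CTR libraries. Th, the rate-limiting enzyme of dopamine synthesis, averaged 281 ± 147 CPM for CTR and 17.8 ± 5.20 CPM for SS (SD, n = 4 per group), a log2 fold change of -3.99 (SE 0.35, edgeR adjusted p = 0.00053). Slc6a3, the dopamine transporter, had -6.22 (SE 0.51, adjusted p = 0.00053). The log2 fold change of Tacr3, at -0.89, had the same sign and was smaller than either. Without either pair, 4 of the 10 markers were called lower with edgeR. By the fitted fold change, 9 of the 10 markers were lower in SS and 1 was higher. The lower markers were found beside a lower Tacr3 and a higher Tac2, and their part in either result was not tested.

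For Tac2 the lists of interest were those of the hypothalamus and the mammillary region, which border the VTA, and of neurokinin B neurons of the arcuate nucleus. Of 19 hypothalamic and mammillary markers, 12 passed the filter, of which 0 passed with edgeR or DESeq2. By the unadjusted p, 2 of them were higher in SS and 0 lower, where 6.55% of all tested genes were past 0.05 in either direction. Without CTR-1 and CTR-2 there were 5 higher and 0 lower, and without CTR-5 and SS-5 there were 2 higher and 1 lower. Avp and Six6 were at 0 in every library. The summed level of the list was 92.6 to 197 CPM in CTR and 171 to 216 CPM in SS, so the groups overlapped. All SS libraries lay above all CTR libraries in 2 of the 12, Pmch and Otp, and in 2.47% of all tested genes. Pmch, the precursor of melanin-concentrating hormone, ranged from 0.207 to 16.7 CPM in CTR libraries and from 32.1 to 50.3 CPM in SS libraries (log2 fold change 2.54, SE 0.74, adjusted p = 0.61 with edgeR). Without CTR-1 and CTR-2 it was past the threshold with edgeR (3.07, SE 0.41, adjusted p = 0.023), and without CTR-5 and SS-5 it was not (2.38, SE 0.96, adjusted p = 0.42). Otp, a transcription factor of hypothalamic neurons, ranged from 0 to 1.503 CPM in CTR libraries and from 2.20 to 10.3 CPM in SS libraries. Its fold change on the log2 scale was 2.72 (SE 0.87, unadjusted p = 0.0087, adjusted p = 0.70 with edgeR and 0.087 with DESeq2). Pmch and Otp were higher in SS, as Tac2 was. They stood out from their list, in which 9 tested markers were higher and 3 lower, with a median log2 fold change of 0.17. The part of these markers in the result of Tac2 was not tested.

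Kiss1, which defines the neurokinin B neurons of the arcuate nucleus, was at 0 in all 8 libraries. The other 3 markers of these neurons passed the filter and 0 of them passed with either tool. Esr1, an estrogen receptor, ranged from 1.54 to 5.27 CPM in CTR libraries and was at 5.89 CPM or more in SS libraries (log2 fold change 1.17, SE 0.41, adjusted p = 0.74 with edgeR), and Pgr, the progesterone receptor, had -0.16 (SE 0.25). The summed level was 13.0 to 31.0 CPM in CTR and 21.3 to 31.2 CPM in SS. Of 6 markers of the medial habenula, where Tac1 and Tac2 are both known, 0 passed with either tool. Nwd2 had -1.02 (SE 0.38, adjusted p = 0.75) and Lrrc55, the most abundant, -0.16 (SE 0.19). The summed level was 62.0 to 110 CPM in CTR and 55.7 to 68.7 CPM in SS. Of 6 striatal markers 0 passed with either tool. Rgs9, the most abundant, had 0.22 (SE 0.17).

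In the other lists no gene passed with edgeR or DESeq2. These were GABA neuron, glutamate neuron, astrocyte, oligodendrocyte, microglia and endothelial markers, and 0 of 3 serotonin neuron markers passed the filter. The most abundant genes of the glutamate neuron and glial and endothelial lists had log2 fold changes of 0.20 (Slc17a6), 0.13 (Slc1a3), -0.14 (Mbp), -0.04 (Csf1r) and -0.04 (Flt1). The genes with the smallest p beside them were Slc17a7 at -2.16 (13.9 to 403 CPM in CTR and 21.5 to 64.5 CPM in SS), Gfap at -0.75, Olig2 at -0.31, Cx3cr1 at -0.28 and Cldn5 at 0.24, with adjusted p-values of 0.74 to 0.80 with edgeR. All of these were smaller in size than the difference of Tac2 except that of Slc17a7.

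**Figure D5:**
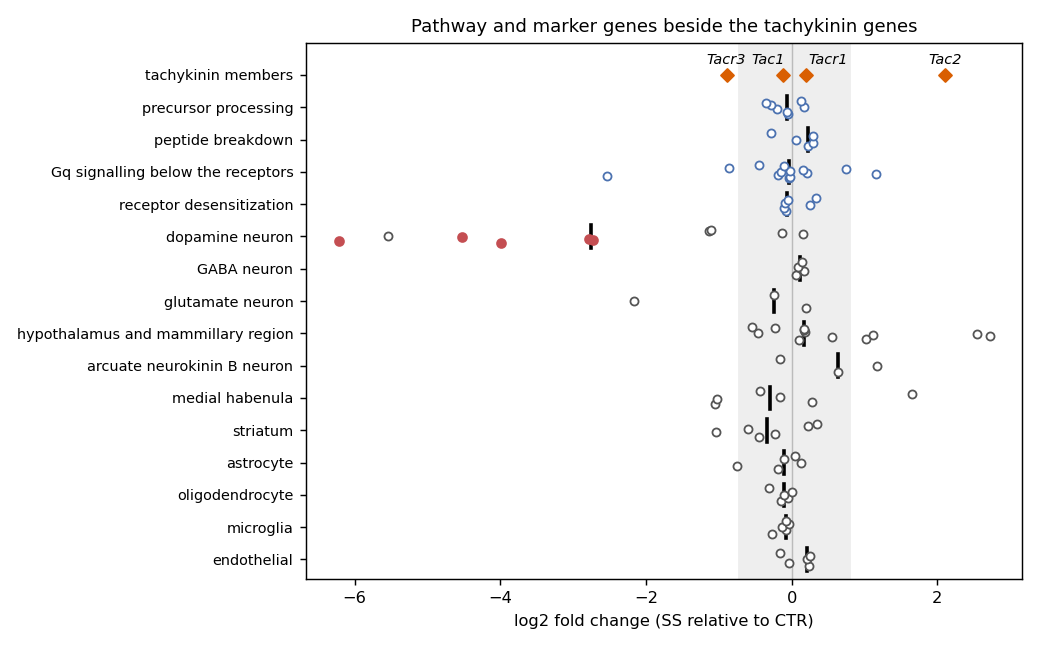
Log2 fold change, SS relative to CTR (x axis), of each tested gene of the pathway lists (blue circles) and marker lists (grey circles) beside the tachykinin genes (orange diamonds), where filled red points have an adjusted p under 0.05 with edgeR, black bars are list medians and the grey band runs from the 5th to the 95th percentile of all tested genes (-0.72 to 0.80). Tac2 and Tacr3 lay outside the band and Tac1 and Tacr1 inside it, and the filled points were all dopamine neuron markers.

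The genes whose log2 CPM followed each member most closely over the 8 libraries are given as a description, with the correlation of deviations from the group means after it. The points share the library and its depth, so no p is given. Tac1 was followed by Ogfr (r = 0.99, within groups 0.99), Necab2 (0.95, 0.96) and Xaf1 (0.93, 0.95), none of which differed in mean by more than 0.13 on the log2 scale. Tac2 was followed by Iqgap3 (0.95, 0.60), Ell2 (0.95, 0.69) and Usp30 (0.94, 0.83). Iqgap3 had 0 or 1 counts in every CTR library. The likeness to these genes was lower within the groups than over all libraries. Tacr1 was followed by Ddr1 (0.97, 0.98), Gng4 (0.94, 0.95) and Zyx (0.94, 0.97), and Tacr3 by Aass (0.98, 0.95), Pbdc1 (0.97, 0.95) and Tmsb4x (0.96, 0.92). Among the members themselves the largest correlation in size was that of Tac2 with Tacr3, at -0.84 over the 8 libraries and -0.58 within groups.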

How the data were processed

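Per the study's methods, Cutadapt trimmed the reads, STAR aligned them to mm10, and htseq-count summed them over the genes of an Ensembl annotation. The authors deposited whole read counts per gene without normalization, and reads on no gene are not in the table. Whether counting used strand is not given in the sources used here, and in GENCODE M21 (GRCm38) no annotated gene overlaps a member.

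Genes were kept with filterByExpr (minimum count 10, minimum total 15) of edgeR 4.0.16 in R 4.3.3, which left 16538 genes. The groups were compared with TMM normalization, glmQLFit and glmQLFTest on the group alone, with a threshold of 0.05 after Benjamini-Hochberg adjustment. CPM and CPM per kilobase of exon were computed here from the counts, and log2 CPM used a prior count of 2. Log2 CPM and log2 ratios of counts plus 0.5 were compared by exact two-sided permutation over 70 assignments. The scripts were tested on simulated data. Alternatives were DESeq2 1.42.0, voom of limma 3.58.1, DESeq2 size factors, upper-quartile normalization, no filter, a mean count of at least 50, the bias-adjusted edgeR estimate, the replicate number as a block, and fits without each library or the pairs that stood apart. DESeq2 with libraries left out, ratios and lists without the pairs, and CPM on library totals, were added after seeing the data.

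The members and lists were chosen with earlier results of these data known. Named genes were the members, the rest of the family, the most abundant gene and those with the smallest p of each list (2 per pathway list, 1 per marker list), Th and Slc6a3, and the 3 genes most like each member. Some genes that this rule selects are left out of the text. Otp, Avp, Six6 and Kiss1 were named after their values were seen. Lists held, for pathways, precursor processing, peptide breakdown, Gq signalling and desensitization genes, and for markers the cell types and regions given with the results.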

Additional observations from a re-analysis of the deposited data

Results flagged for a closer look

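Dixon's ratio compares the gap between an extreme library and the next with the whole range of the 4 libraries of its group. It was taken for each ratio and for each gene named here by the rule that passed the filter. Genes named after their values were seen were not included. In 4 of 94 groups it was past the critical value, where chance gives about 1 in 20 groups, that is 4.7 here. None of these was a member or a ratio of members. Among pathway genes it was Arrb2, with SS-2 lowest (0.934). Among marker genes they were Pmch, with SS-5 highest (0.850), and Flt1, with SS-4 highest (0.941). Among the genes most like Tac2 it was Iqgap3, with CTR-2 highest (1.0), since the other CTR libraries had no count of it.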

How the results depend on the processing

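The log2 fold changes of Tac2, Tacr1 and Tacr3 kept their direction in every alternative. Tac2 ran from 1.98 to 2.38 over edgeR's fits and likewise 1.98 to 2.38 over DESeq2's fits with 1 library left out, with all DESeq2 fits past the threshold (2.01, 2.38, 2.11 and 1.99 without CTR-1, 2, 3 and 5, and 2.31, 1.98, 2.11 and 2.04 without SS-2, 3, 4 and 5). It was past it in DESeq2 with all libraries (2.11) and without the libraries with many genes at 0 (2.32), and DESeq2 gave no adjusted p without the libraries with Xist. Tacr3 ran from -1.09 to -0.67 over DESeq2's fits with 1 library left out, and was past the threshold without CTR-2 (-1.04), SS-5 (-1.09) or the libraries with Xist (-1.08). Tac1 reversed without the libraries with many genes at 0, at 0.21 with both tools. With 1 library left out it ran from -0.42 to 0.20 with both tools, above 0 without CTR-2 (0.20 with both) and without SS-3 (0.0044 with edgeR, 0.0021 with DESeq2). The cause was not tested. The ratios kept their direction, and CPM on library totals changed no direction.

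The number of genes past the threshold was 14 with edgeR and became 22 with no filter, 22 at a mean count of at least 50, 27 with the bias-adjusted estimate, 9 without the libraries with Xist and 6 to 19 with 1 library left out. With DESeq2 it was 81 of the 19349 genes with an adjusted p (0.419%). Without the libraries with Xist it was 399 of only 8448 such genes (4.72%). With 1 library left out DESeq2 called 41 to 684, where 684 of 19242 (3.55%) was without CTR-5. No edgeR fit called Tac1, Tacr1 or Tacr3.

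Same-numbered libraries did not deviate together over all tested genes (r = -0.01, -0.01 and 0.06 for the numbers 2, 3 and 5), and the main fit did not pair them. CTR-5 and SS-5 did share Xist counts with few or no Y-linked counts. By the study's methods litters were assigned to CTR or SS, so same-numbered libraries of the groups come from different litters. Whether they shared a batch was not tested. With a replicate block the number of genes was 9, and the log2 fold changes were 1.97 for Tac2 (adjusted p = 0.77), -0.58 for Tacr3, -0.11 for Tac1 and 0.22 for Tacr1, with no change of call.

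The counts of Tac2 in CTR, 30 to 77, were the lowest of the members. With 4 libraries a group, a permutation p cannot go below 0.029.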
